A study of Mus musculus with 10 samples.

Results

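Cadherins and protocadherins numbered singly (genes named Cdh or Pcdh plus a number, without the clustered Pcdha, Pcdhb and Pcdhg genes) were followed across the open chromatin of mouse bone marrow progenitors carrying 2 leukaemia alleles. Of 21627 protein-coding RefSeq genes (GRCm38.p6), 34 had such a symbol. The peaks of 8 libraries were merged into 103446 regions on chromosomes 1 to 19 and X, with peaks joined where they shared 1 bp. A region was given to one of these genes when its midpoint lay inside the gene, or when that gene was the nearest within 100 kb, and 202 regions were selected in this way. The members were chosen from the called peaks themselves, so having a region is a property of the choice and not a result.

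The assay was ATAC-seq, in which a transposase inserts sequencing adapters into accessible DNA and a peak marks a stretch with many insertions. It was run on lineage-negative cells, that is marrow of femurs and tibias depleted of cells with mature blood markers, from C57BL/6 mice whose ages are not given. WT mice were wild-type. Npm1c mice were Npm1flox-cA/+;Mx1-Cre+, with 1 allele of the nucleolar protein gene Npm1 converted to the leukaemic cytoplasmic form by Cre from the interferon-inducible Mx1 promoter. Flt3-ITD mice were Flt3ITD/+, with an internal tandem duplication in 1 allele of the cytokine receptor gene Flt3. Double mutant mice (DM) were Npm1flox-cA/+;Flt3ITD/+;Mx1-Cre+. Mx1-Cre was present in the Npm1c and DM groups alone, so its effect and that of the Npm1c allele cannot be told apart. The Mx1 promoter is active in many cell types, so recombination is not limited to blood cells. Each of the 4 groups had 2 libraries, called biological replicates without naming animals, and 2 wild-type neutrophil samples were not analysed here.

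Cadherins are membrane proteins whose extracellular repeats bind calcium and hold neighbouring cells together. The classical types bind beta-catenin and p120-catenin with their cytoplasmic tails and so tie the junction to actin, whereas protocadherins have other tails, adhere more weakly and are best known from the nervous system. In the marrow, VE-cadherin (Cdh5) marks endothelium, N-cadherin (Cdh2) has been discussed as a niche molecule, and promoters of several protocadherins are rich in CG dinucleotides and prone to methylation in cancer.

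The promoters of 5 genes whose start regions differed between genotypes in calls or covered length are shown with their letters. Each is the 250 bases before a RefSeq start, 5′ to 3′ on the gene's strand (RefSeq, GRCm38.p6). Capitals mark a match to GGGCGG (bound by SP and KLF factors) or GGAAGT (bound by ETS factors) on either strand, which do not overlap each other here.

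Pcdh7 (chr5:57717831-57718080, plus strand): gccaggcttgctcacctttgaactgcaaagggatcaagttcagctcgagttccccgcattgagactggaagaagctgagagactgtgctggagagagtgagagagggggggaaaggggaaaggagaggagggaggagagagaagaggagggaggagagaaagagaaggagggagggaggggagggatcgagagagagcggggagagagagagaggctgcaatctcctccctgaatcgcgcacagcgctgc
Pcdh8 (chr14:79771313-79771562, minus strand): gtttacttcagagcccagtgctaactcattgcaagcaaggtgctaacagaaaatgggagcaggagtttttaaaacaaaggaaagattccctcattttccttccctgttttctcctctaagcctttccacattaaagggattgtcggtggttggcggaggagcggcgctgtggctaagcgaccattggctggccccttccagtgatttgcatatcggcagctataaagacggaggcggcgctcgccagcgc
Pcdh10 (chr3:45378148-45378397, plus strand): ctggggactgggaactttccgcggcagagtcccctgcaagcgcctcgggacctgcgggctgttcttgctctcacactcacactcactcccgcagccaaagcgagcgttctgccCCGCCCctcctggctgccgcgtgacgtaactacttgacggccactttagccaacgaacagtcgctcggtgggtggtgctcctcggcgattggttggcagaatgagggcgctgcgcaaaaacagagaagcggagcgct
Pcdh17 (chr14:84443313-84443562, plus strand): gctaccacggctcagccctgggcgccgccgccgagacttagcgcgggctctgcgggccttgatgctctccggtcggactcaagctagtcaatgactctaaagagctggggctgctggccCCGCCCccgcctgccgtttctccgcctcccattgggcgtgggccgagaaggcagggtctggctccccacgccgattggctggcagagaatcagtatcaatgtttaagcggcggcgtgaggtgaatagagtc
Cdh22 (chr2:165234738-165234987, minus strand): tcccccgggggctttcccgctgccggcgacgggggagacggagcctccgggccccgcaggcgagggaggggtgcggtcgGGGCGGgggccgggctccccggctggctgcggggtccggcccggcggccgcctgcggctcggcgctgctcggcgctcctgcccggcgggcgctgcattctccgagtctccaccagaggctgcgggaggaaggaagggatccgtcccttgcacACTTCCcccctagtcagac

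The stretches before Cdh22, Pcdh10 and Pcdh17 held 30, 22 and 21 CG dinucleotides, and those before Pcdh8 and Pcdh7 held 11 and 7. In windows of 300 bases, which add 50 after the start, the same genes held 38, 24, 26, 14 and 11. The median of all 32619 such windows was 7, with quartiles of 3 and 20, so Pcdh8 and Pcdh7 lay between the quartiles. GGGCGG occurred in 9 of 25 windows of member genes (300 bases, 250 before to 50 after the start) and in 35.9% of all 32619 such windows. GGAAGT occurred in 3 of 25 against 23.9%, the RUNX motif TGTGGT in 4 against 16.6%, the GATA motif AGATAA in 1 against 11.2%, the AP-1 motif TGACTCA in 0 against 5.22%, and the E-box CACCTG of SNAIL and ZEB repressors in 5 against 20.3%. Both strands were searched, and a match describes letters only. The 25 windows belong to 22 genes, as Cdh7 and Pcdh9 have more than 1 window. Each Cdh7 window held CACCTG.

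The lists held 43825 to 80916 peaks, fewest in Flt3-ITD replicate 1 and most in WT replicate 1. The files give positions without heights or read depth, so a library either had a peak in a region or did not, and a missing peak can reflect depth or threshold. All 10 genes of a progenitor marker list (Kit, Cd34, Gata2 and others) had a called region in every library. WT replicate 1 stood apart for the cadherin and protocadherin genes: 48 of their regions were called in it and not in WT replicate 2, against 1 in the reverse direction. Totals that rest on WT are therefore also given without one of its libraries where that moved them by more than 1.5 times.

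Regions were found at 25 of the 34 genes. Cdh7, Cdh8, Cdh9, Cdh12, Cdh18, Cdh19, Pcdh12, Pcdh18 and Pcdh20 had none. Of the 202 regions, 141 lay inside their gene (69.8%, against 59.6% of all regions) and 61 beyond its ends, 26 of them within 10 kb. The regions were called in 138 and 91 cases for WT, 95 and 103 for Npm1c, 72 and 71 for Flt3-ITD, and 113 and 125 for DM (replicates 1 and 2 throughout). As a share of all regions called in each library these were 0.177% and 0.151% for WT, 0.161% and 0.158% for Npm1c, 0.180% and 0.149% for Flt3-ITD, and 0.217% and 0.208% for DM. Both DM shares were above the other 6, which overlapped each other. Regions called in all 8 libraries numbered 36 (17.8%, against 25.3% of all regions), and 10 of these were at Cdh23, 4 at Pcdh1, 3 each at Cdh15 and Cdh26, 2 each at Cdh1, Cdh3, Cdh17 and Pcdh17, and 1 each at Cdh5, Cdh16, Cdh22, Cdh24, Pcdh7, Pcdh8, Pcdh15 and Pcdh19. At the edge of the distance rule, the farthest regions taken lay 97253 bp from Cdh20 and 87663 bp from Cdh26, and the nearest left out lay 127581 bp from Cdh26.

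**Figure D1:**
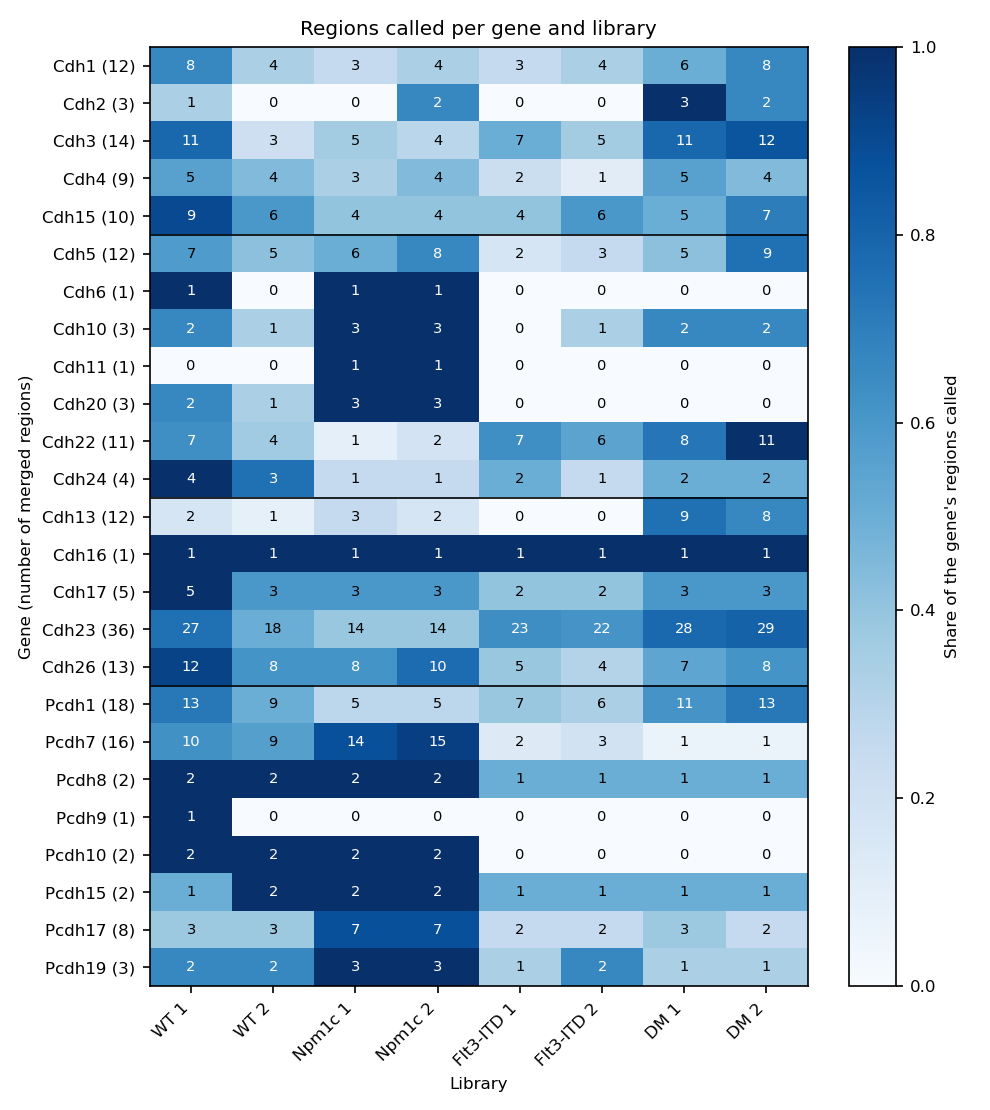
Number of merged regions called in each library (columns) at each gene with a region (rows, with the number of its regions in brackets); shading is the share of the gene's regions called, and lines separate type I, type II, other cadherins and protocadherins. Cdh13 had 9 and 8 regions called for DM and at most 3 in any other library, and Pcdh7 had 14 and 15 for Npm1c and 1 in each DM library.

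Cadherins and protocadherins had different orders of the genotypes. Cadherin regions (150 at 17 of 23 genes) were called in 104 and 62 cases for WT, 60 and 67 for Npm1c, 58 and 56 for Flt3-ITD, and 95 and 106 for DM. Protocadherin regions (52 at 8 of 11 genes) were called in 34 and 29 cases for WT, 35 and 36 for Npm1c, 14 and 15 for Flt3-ITD, and 18 and 19 for DM. The 4 libraries with the Flt3-ITD allele were thus all below the 4 without it at protocadherins. Over all regions the order was nearly the same, with 40072 and 47618 called for Flt3-ITD and 52169 and 60010 for DM, against 78002 and 60158 for WT and 58952 and 65242 for Npm1c. The erythroid genes (8 genes from Klf1 to Alas2) had a like order, with 47 and 44 regions called for WT, 44 and 42 for Npm1c, 29 and 35 for Flt3-ITD, and 26 and 25 for DM. The progenitor marker genes had 155 and 107 for WT, 115 and 126 for Npm1c, 84 and 93 for Flt3-ITD, and 93 and 111 for DM. Low counts for Flt3-ITD were thus not limited to erythroid genes. Monocyte and dendritic cell genes, given below, had another order. The part of any cell type in the protocadherin counts was not tested. The protocadherin order was not that of every gene. Pcdh1, with 18 of the 52 regions, had 13 and 9 called for WT, 5 and 5 for Npm1c, 7 and 6 for Flt3-ITD, and 11 and 13 for DM. Pcdh7, with 16 regions, had 10 and 9 for WT, 14 and 15 for Npm1c, 2 and 3 for Flt3-ITD, and 1 and 1 for DM. At cadherins the DM libraries were above Npm1c and Flt3-ITD and WT ran from 62 to 104. Here and below, a region is called gained in a group when both of its libraries had a peak there and neither library of the other group did, and lost in the opposite case. With 2 libraries a group this is a description with no test, and several comparisons share their control libraries. Leaving out a library loosens such calls for all regions, and counts made that way are given without the share of all regions.

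Against WT, DM gained 22 of the 202 regions (10.9%, against 6.93% of all regions) and lost 29 (14.4%, against 20.9%). The gains were at Cdh13 (8), Cdh23 (5), Pcdh1 (3), Cdh3 (2), Cdh22 (2), Cdh2 (1) and Cdh4 (1). In these full lists most of the excess of gains over the share of all regions came from Cdh13. The losses were led by Pcdh7 (8) and Cdh23 (4), followed by Cdh1, Cdh26, Cdh4, Pcdh1 and Pcdh10 (2 each). By family, cadherins gained 19 and lost 15 regions, and protocadherins gained 3, all at Pcdh1, and lost 14, of which 8 were at Pcdh7. These counts depended on single libraries: DM gained 47 regions without WT replicate 1 and 40 without DM replicate 1, and lost 45 without WT replicate 2. In these 3 cases, in turn, cadherins gained 43, 35 and 19 regions and lost 15, 18 and 27, so that without WT replicate 2 they lost more than they gained. When every list was shortened to its 43794 widest peaks, DM gained 33 of 132 regions (25%, against 13.6% of all) and lost 11 (8.33%, against 15.4%). In these shortened lists cadherins gained 28 and lost 4 of 99 regions, and protocadherins gained 5 and lost 7 of 33.

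Against Npm1c, DM gained 45 regions (22.3%, against 12.6%) and lost 38 (18.8%, against 19.3%), so the share lost was near that of all regions. Gains were led by Cdh23 (13), Cdh13 (8), Cdh22 (7), Pcdh1 (6), Cdh3 (4), Cdh1 and Cdh4 (2 each), and losses by Pcdh7 (12), Cdh20, Cdh26 and Pcdh17 (3 each), Cdh13, Cdh23, Pcdh10 and Pcdh19 (2 each). Cadherins gained 39 of 150 regions (26.0%) and lost 16 (10.7%), while protocadherins gained 6 of 52 (11.5%) and lost 22 (42.3%). All 6 protocadherin gains were at Pcdh1, and 12 of the 22 losses were at Pcdh7. With lists of equal length the cadherins gained 37 and lost 1, and the protocadherins gained 4 and lost 15, together 31.1% gained (against 16.5% of all regions) and 12.1% lost (against 18.2%). Without DM replicate 1 the gains numbered 68 over both families, 59 of them at cadherins. The difference between the families itself was not tested.

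Against Flt3-ITD, DM gained 32 regions (15.8%, against 10.6%) and lost 5 (2.48%, against 3.44%). The gains were led by Cdh13 (8), Cdh23 (6), Cdh3 (4) and Pcdh1 (4), and the losses were 1 each at Cdh4, Cdh15, Cdh23, Pcdh1 and Pcdh7. The gains numbered 56 without DM replicate 1 and 17 in lists of equal length (12.9%, against 6.81% of all), and losses numbered 8 without Flt3-ITD replicate 1.

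Of the single mutants, Flt3-ITD gained 1 region against WT (0.495%, against 0.852%), at Cdh22, and lost 30 (14.9%, against 16.2%), a share near the background. Its losses were led by Pcdh7 (6), Cdh26, Cdh5 and Pcdh1 (3 each). Without WT replicate 1 the gains numbered 14 and without WT replicate 2 the losses numbered 58, and lists of equal length gave 13 gained (9.85%, against 5.85% of all) and 8 lost (6.06%, against 6.49%). The gained share was thus below that of all regions in the full lists and above it in the shortened ones. Npm1c gained 11 regions (5.45%, against 2.71%) and lost 17 (8.42%, against 6.26%). Its gains were led by Pcdh7 and Pcdh17 (3 each), with 1 each at Cdh10, Cdh11, Cdh13, Cdh20 and Pcdh19, so 7 of the 11 were at protocadherins. Its losses were led by Cdh23 (5), Pcdh1 (4), Cdh15, Cdh22 and Cdh24 (2 each). Without WT replicate 1 the gains numbered 21, of which 13 were at cadherins and 8 at protocadherins, and without WT replicate 2 the losses numbered 47.

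**Figure D2:**
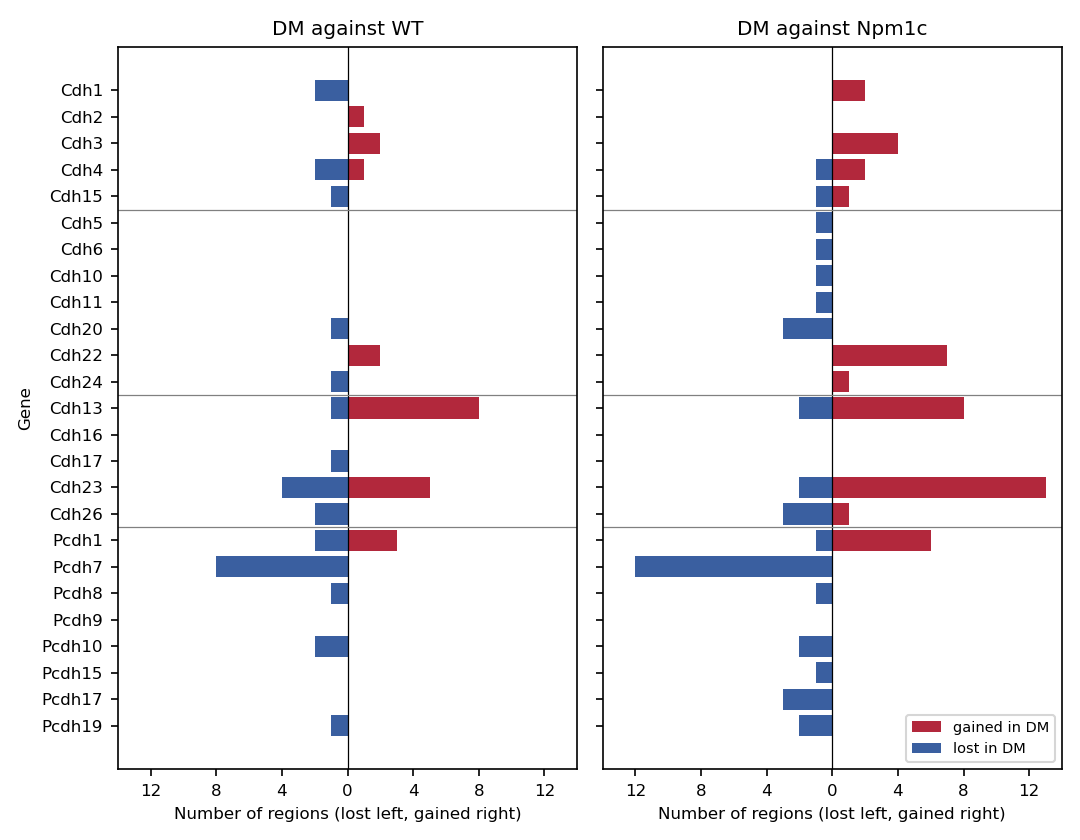
Regions gained (right, red) and lost (left, blue) in DM against WT and against Npm1c, per gene, with lines between the same subfamilies. Against Npm1c, Cdh23, Cdh13 and Cdh22 extend mainly to the right and Pcdh7 to the left, with 12 regions lost. Against WT, Cdh23 extends to both sides, with 5 regions gained and 4 lost.

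Type I classical cadherins had 48 regions, called in 34 and 17 cases for WT, 15 and 18 for Npm1c, 16 and 16 for Flt3-ITD, and 30 and 33 for DM. E-cadherin (Cdh1, the adhesion molecule of epithelia) had 12 regions, with 8 and 4 called for WT, 3 and 4 for Npm1c, 3 and 4 for Flt3-ITD, and 6 and 8 for DM. P-cadherin (Cdh3), its neighbour on chromosome 8, had 14, with 11 and 3 called for WT, 5 and 4 for Npm1c, 7 and 5 for Flt3-ITD, and 11 and 12 for DM. At both genes DM lay above the single mutants, and WT replicate 1 lay with DM while WT replicate 2 did not. M-cadherin (Cdh15, known from muscle) had 10 regions, with 9 and 6 called for WT, 4 and 4 for Npm1c, 4 and 6 for Flt3-ITD, and 5 and 7 for DM. Its RefSeq start was called in all 8 libraries. R-cadherin (Cdh4) had 9 regions, none of them in all libraries. N-cadherin (Cdh2) had 3, of which the widest (18:16808199-16809676) covered 603 bp in WT replicate 1, 736 bp in Npm1c replicate 2, and 1478 and 1365 bp for DM, and was not called in the other 4 libraries.

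Type II classical cadherins had 35 regions at 7 of 13 genes. VE-cadherin (Cdh5) had 12, with 7 and 5 called for WT, 6 and 8 for Npm1c, 2 and 3 for Flt3-ITD, and 5 and 9 for DM. As over all regions (40072 and 47618 called), the Flt3-ITD libraries were the lowest of the 8 at this gene. Genes that mark endothelium and stroma moved with it in part: of 10 such genes, 10 and 9 had a called region in WT, 10 and 10 for Npm1c and 7 in each library with the Flt3-ITD allele, where Tek, Lepr and Col1a2 had none. The regions called at those 10 genes numbered 49 to 67 for WT, 38 to 48 for Npm1c, 26 to 33 for Flt3-ITD and 37 to 44 for DM, and their part in the Cdh5 result was not tested. In bulk chromatin, fewer cells of a type and a closed site in each cell cannot be told apart.

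Cdh22, a brain-enriched type II cadherin, had 11 regions, and the Npm1c libraries were the lowest, with 1 and 2 called against 7 and 4 for WT, 7 and 6 for Flt3-ITD, and 8 and 11 for DM. Its 7 gains in DM against Npm1c were matched or passed by 209 of 16613 genes with a region, a count that, like the later ones, includes the gene itself. Of the 7, 4 lay inside the gene. In the same comparison the flanking Slc35c2 gained 4 of 6 regions, with 2 and 2 called for Npm1c and 6 and 6 for DM. The other flanking genes, Cd40, Ncoa5 and Elmo2, gained 1 each. The region over the Cdh22 start (2:165234539-165235028) had no peak in either Npm1c library. It covered 416 and 354 bp for WT, 352 and 401 bp for Flt3-ITD, and 488 and 483 bp for DM. A second region of the gene (2:165233371-165233854) showed the same calls. Regions called in the other 6 libraries and not in Npm1c numbered 5 (2.48%, against 1.2%), these 2 and 3 at Cdh23. They numbered 12 when WT replicate 2 was left out, 8 when Flt3-ITD replicate 2 was, and 2 among peaks of 300 bp or more. The region at 2:165195429-165195881, inside Cdh22, was the 1 member region with a peak in each Flt3-ITD and DM library and in no WT or Npm1c library (0.495%, against 0.566%). Such regions numbered 8 without WT replicate 1, 12 in lists of equal length and 3 among peaks of 300 bp or more.

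Among the less covered type II genes, Cdh20 had 3 regions, of which 2 and 1 were called for WT, 3 and 3 for Npm1c and 0 in all 4 libraries with the Flt3-ITD allele. Cdh11 (OB-cadherin, known from osteoblasts and stroma) had 1 region, called in both Npm1c libraries alone. Cdh10 had 3 regions, Cdh24 had 4, of which 1 covered its RefSeq start in all libraries, and Cdh6 had 1.

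Cadherins outside the classical types had 67 regions, called in 47 and 31 cases for WT, 29 and 30 for Npm1c, 31 and 29 for Flt3-ITD, and 48 and 49 for DM. T-cadherin (Cdh13), which lacks a cytoplasmic tail and is held by a lipid anchor, had 12 regions in a gene of 1185 kb. They were called in 2 and 1 cases for WT, 3 and 2 for Npm1c, 0 and 0 for Flt3-ITD, and 9 and 8 for DM. Of these, 8 were called in both DM libraries and none of the other 6, all inside the gene, over 441 kb (8:118389446-118830896) and 285 to 662 bp wide. They began at 118389446, 118465526, 118518066, 118560180, 118564709, 118629208, 118654370 and 118830235. Gains against WT at least as many were found at 21 of 16613 genes, and its share of 66.7% was reached by no other of the 2849 genes with 10 or more regions. Of the 2 flanking genes on either side, the nearer were Mphosph6, with 3 and 3 of 5 regions called in DM against 4 and 3 for WT, and Hsbp1, with 2 and 4 of 5 against 4 and 4. Mlycd, beyond Hsbp1, gained 2 and lost 2 of its 7 regions in DM against WT. Of the other 4 regions of Cdh13, 1 (8:119297785-119298080) had a peak in each of the WT and Npm1c libraries and in no Flt3-ITD or DM library.

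Across all member genes, 20 regions were called in both DM libraries and none of the other 6 (9.9%, against 5.13%). Cdh13 held 8 of these regions and with them most of the excess over all regions. Beside the 8 of Cdh13 they were 5 at Cdh23 (starting at 60302848, 60367900, 60395625, 60539489 and 60639326 on chromosome 10), 3 at Pcdh1 (38190566, 38196530 and 38205011 on chromosome 18), 2 at Cdh3 (106516600 and 106546767 on chromosome 8), 1 at Cdh4 (2:179654613-179654853) and 1 at Cdh22 (2:165241670-165242152). Their number was 38 without DM replicate 1, 12 among peaks of 300 bp or more and 13 in lists of equal length. The opposite pattern, called in the other 6 libraries and neither DM library, held 5 regions (2.48%, against 2.78%), 1 each at Cdh15, Cdh23, Cdh4, Pcdh1 and Pcdh7, and it held 8 without Flt3-ITD replicate 1.

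Monocyte and dendritic cell genes had more called regions in DM as well. Over 5 such genes (Csf1r, Irf8, Ly86, Cd74 and Ciita) 47 and 27 regions were called for WT, 16 and 15 for Npm1c, 37 and 39 for Flt3-ITD, and 72 and 95 for DM, and all 5 genes had a region in every library. The part of such cells in the DM gains was not tested. Regions of B and T cell genes numbered 8 and 3 for WT, 1 and 3 for Npm1c, 5 and 5 for Flt3-ITD, and 13 and 21 for DM, with none at Cd79a or Cd3g in any library. Neutrophil genes had regions called at 4 and 2 of 5 genes in WT and at 3 in every other library, with none at Ly6g, and their regions numbered 10 and 4 for WT, 6 and 5 for Npm1c, 7 and 7 for Flt3-ITD, and 16 and 11 for DM.

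Cadherin-23 (Cdh23), a component of the tip links of inner-ear hair cells, had the most regions of any member, 36. They were called in 27 and 18 cases for WT, 14 and 14 for Npm1c, 23 and 22 for Flt3-ITD, and 28 and 29 for DM, so the Npm1c libraries were again the lowest. Its 13 gains in DM against Npm1c were reached by 20 of 16613 genes. Its share of 36.1% was reached by 228 of 2849 genes with 10 or more regions. In this comparison the flanking Psap gained 6 of 17 regions, Chst3 6 of 16, Slc29a3 2 of 8 and Unc5b 3 of 9. The gene for the immune checkpoint protein Vsir is nested in Cdh23, and 16 of the regions lie in Vsir. Given to Vsir, they leave 7 gains. The 16 include 5 of the Cdh23 regions called in all 8 libraries and 2 of its DM-only regions (60367900 and 60395625). They also include 1 of its regions missing in Npm1c alone and the 1 missing in DM alone. The lower-numbered end of Cdh23 lies 148 bp from Psap. Near that end, the region 10:60304064-60305926 covered 518 and 438 bp for WT and 354 and 326 bp for Npm1c. It covered 753 and 730 bp for Flt3-ITD, and 1404 and 1863 bp for DM. Its covered length did not overlap between any 2 of the 4 groups, and DM stood at 3.42 of WT. The median of regions called in all 8 libraries was 0.827, and 99.98% of them were at or below 3.42. How many other regions keep all 4 groups apart was not counted. The widest region given to Cdh23 (10:60350359-60352539) lies in Vsir. It covered 1832 and 1707 bp for WT and 1433 and 1542 bp for Npm1c. For Flt3-ITD it covered 830 and 1372 bp and for DM 1025 and 1560 bp, where DM overlapped both single mutants.

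Cdh26 had 13 regions, none inside the gene, with 12 and 8 called for WT, 8 and 10 for Npm1c, 5 and 4 for Flt3-ITD, and 7 and 8 for DM. The widest (2:178497421-178498979) covered 1110 to 1516 bp and was called in every library. Kidney cadherin (Cdh16) had 1 region, called in all 8 libraries, and intestinal cadherin (Cdh17) had 5.

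Protocadherin-7 (Pcdh7) had 16 regions, all inside the gene, and lost more of them in DM than any other member. They were called in 10 and 9 cases for WT, 14 and 15 for Npm1c, 2 and 3 for Flt3-ITD, and 1 and 1 for DM. The 4 groups did not overlap, and how many other genes show this was not counted. Its 12 losses in DM against Npm1c were reached by 82 of 16613 genes, and its share of 75% by 16 of 2849 genes with 10 or more regions. In lists of equal length its losses against WT numbered 5 in place of 8. Of its regions, 6 (starting at 57735613, 57742957, 57758914, 57760083, 57959253 and 57964054 on chromosome 5) had a peak in each WT and Npm1c library and in no Flt3-ITD or DM library. Another 3 had a peak in both Npm1c libraries and none of the other 6, and 3 more in a single Npm1c library. The nearest protein-coding genes lie 3595088 bp (Stim2) and 3675607 bp (G6pd2) away. G6pd2 had no region, and Stim2 had 13 and 9 of 19 regions called for WT, 12 and 16 for Npm1c, 3 and 5 for Flt3-ITD, and 5 and 8 for DM.

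The region at the start of Pcdh7 (5:57713506-57720413) was the widest of any member at 6908 bp, and 15 of the 103446 regions were at least as wide. Its covered length was 6415 and 6381 bp for WT, 6809 and 6829 bp for Npm1c, 3893 and 4417 bp for Flt3-ITD, and 2024 and 1445 bp for DM. It was 1 unbroken peak in the 4 libraries without the Flt3-ITD allele, 4 peaks in each Flt3-ITD library, and 4 and 3 for DM. The groups did not overlap in covered length, and how many other regions show this was not counted. DM stood at 0.27 of WT. The median of regions called in all 8 libraries was 0.827, and 1.17% of them were at or below the Pcdh7 value. The 300-base window over the RefSeq start at 57718081, whose letters are printed above, was called in the other 6 libraries and in neither DM library, a pattern found at 1 of 25 member windows (4%) and at 0.592% of all windows. Peaks of both DM libraries lay elsewhere in the same wide region.

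**Figure D3:**
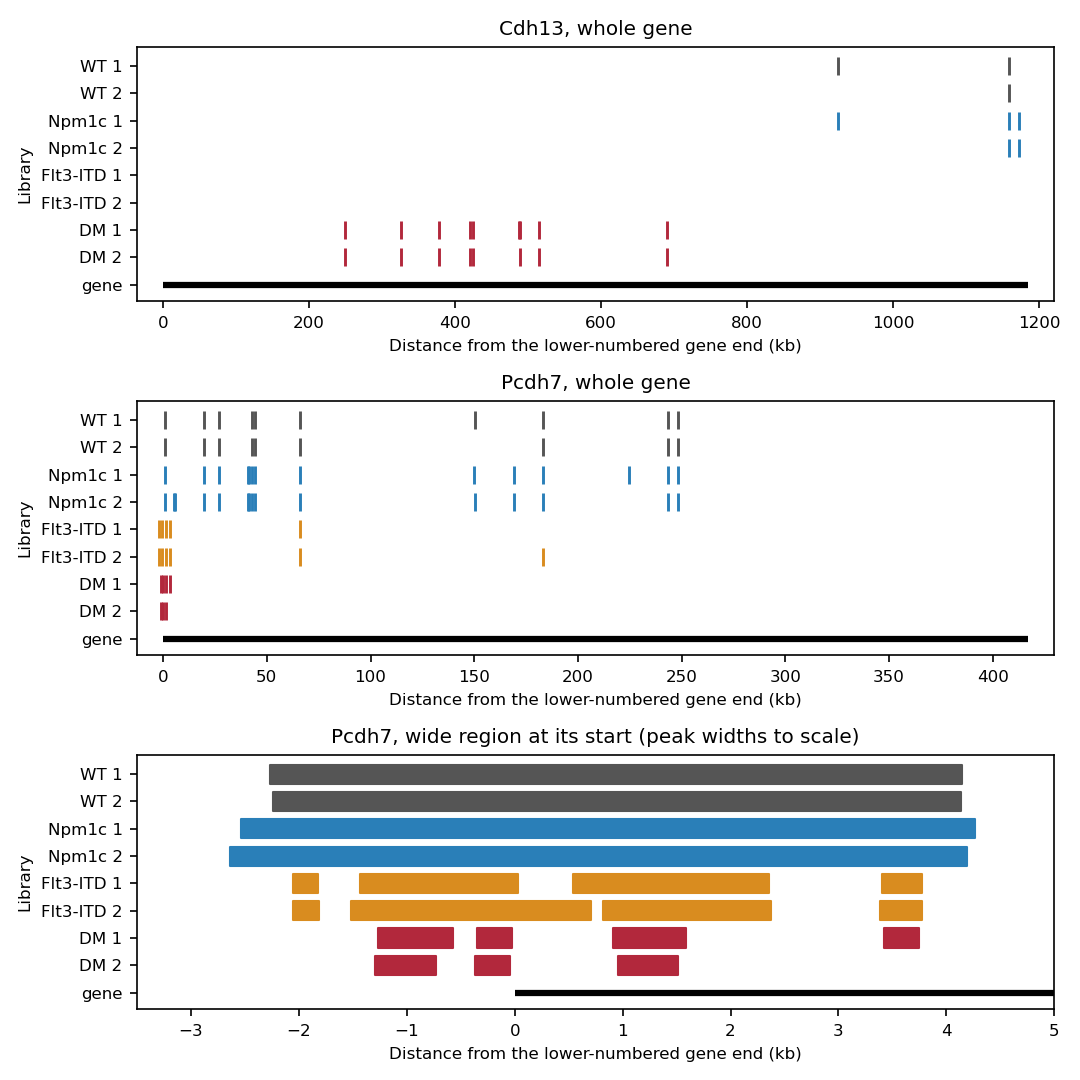
Peaks of each library (rows, coloured by group) along Cdh13 and Pcdh7 as ticks at their midpoints, and along the wide region at the start of Pcdh7 as bars to scale, by distance in kb from the lower-numbered gene end; the black bar is the gene. The 8 DM-only regions of Cdh13 lie together in the DM rows, and the wide Pcdh7 region breaks into 3 or 4 peaks in libraries with the Flt3-ITD allele.

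Pcdh10, Pcdh8 and Pcdh17, of the delta-2 group of protocadherins, differed at their starts. Pcdh10 had 2 regions, both with a peak in every WT and Npm1c library and without one in Flt3-ITD and DM. The one over its start (3:45378057-45378592), which also covers the start of the transcript 2610316D01Rik, covered 373 and 357 bp for WT, 500 and 475 bp for Npm1c, and 0 for Flt3-ITD and DM. The start region of Pcdh8 (14:79771122-79771543) covered 422 and 321 bp for WT, 256 and 354 bp for Npm1c, and 0 for Flt3-ITD and DM. This pattern was found at 2 of 25 member windows (8%, against 0.724% of all windows). The start region of Pcdh17 (14:84442471-84443952) was called in all libraries and was longest in Npm1c, at 1482 and 1304 bp, against 795 and 870 bp for WT, 559 and 541 bp for Flt3-ITD, and 796 and 785 bp for DM. A further region of Pcdh17 (14:84444573-84446243) was called in Npm1c alone, covering 657 and 1665 bp. It was the 1 of the 3 Pcdh17 gains in Npm1c that lay inside the gene.

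Pcdh19, the gene on the X chromosome, had a start region called in all 8 libraries, covering 842 and 829 bp for WT, 620 and 695 bp for Npm1c, 314 and 362 bp for Flt3-ITD, and 400 and 539 bp for DM. Each library with the Flt3-ITD allele was below each without it. Flt3-ITD stood at 0.405 of WT and DM at 0.562. Over regions called in all 8 libraries the medians were 0.788 and 0.827, and 2.19% and 14.7% were at or below the Pcdh19 values. How many other regions keep libraries with and without the allele apart was not counted. Pcdh1 had 18 regions, with 13 and 9 called for WT, 5 and 5 for Npm1c, 7 and 6 for Flt3-ITD, and 11 and 13 for DM. Pcdh15, the partner of cadherin-23 in the tip link, had 2 regions, of which 1 was called in all libraries, and Pcdh9 had 1, called in WT replicate 1 alone.

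**Figure D4:**
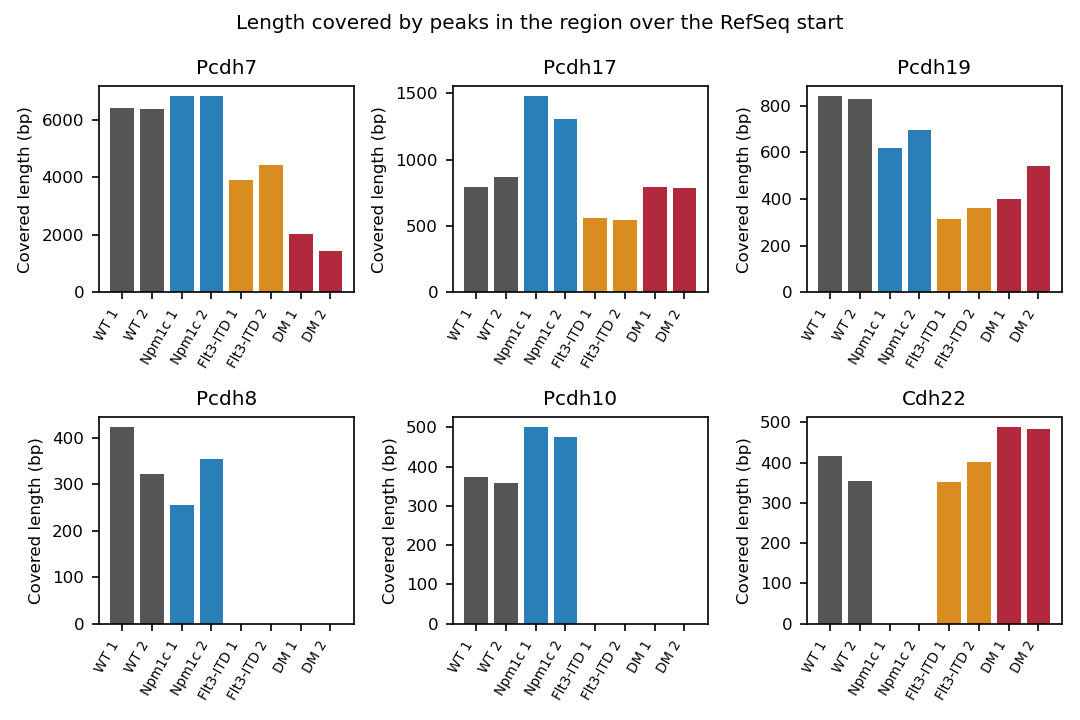
Length in bp covered by peaks in the region over the RefSeq start of 6 genes, per library (bars, coloured by group; no bar means no peak; each panel has its own scale from 0). Pcdh8 and Pcdh10 have no peak with the Flt3-ITD allele, and Cdh22 has none in Npm1c.

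Over all member windows, 10 and 8 of 25 were called for WT, 7 and 7 for Npm1c, 6 and 6 for Flt3-ITD, and 5 and 5 for DM. Those called in all 8 libraries numbered 4 (16%, against 35.9% of all windows): Cdh15, Cdh24, Pcdh17 and Pcdh19. Another 15 were called in no library (60%, against 53%), among them each Cdh7 window. The overlapping Pcdh9 windows, called in WT replicate 1 alone, were counted apart. The Cdh22 window was the 1 called in the other 6 libraries and not in Npm1c (4%, against 0.592%).

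The alleles were also compared over 4 libraries with and 4 without each, by a two-sided Fisher's exact test on the calls at every region with Benjamini-Hochberg adjustment over all 103446. The smallest p this design allows is 0.0286, and 14 member regions reached it for the Flt3-ITD allele, among 9250 regions in all. Their adjusted p was 0.320, so none passed 0.05, and no region of the genome did. With this smallest p, an adjusted p under 0.05 would need most of the 103446 regions to be split by the allele. The outcome was thus nearly set by the design, and no conclusion is drawn from it. Of the 14, 13 were called without the allele and not with it (6.44%, against 8.38%), a share below that of all regions: 6 at Pcdh7, 2 at Pcdh10, 2 at Cdh26 (2:178542131-178542407 and 2:178574858-178575200), and 1 each at Pcdh8, Cdh13 and Cdh20 (1:104997831-104998161). Thus 9 of the 13 were at protocadherins. In lists of equal length 4 regions had this pattern in place of 13. For the Npm1c allele no member region had such a pattern, either called in all 4 libraries with it and none without (0, against 0.156%) or the reverse (0, against 0.204%). In lists of equal length 2 regions had the first of these patterns, and leaving out 1 library gave at most 1 of either. The adjusted p was 1, and 372 regions of all reached an unadjusted p under 0.05. Regions called in both Npm1c libraries and none of the other 6 numbered 11 (5.45%, against 2.38%), and 5 both in lists of equal length and among peaks of 300 bp or more.

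The catenins and other partners of cadherin tails (12 genes, 106 regions) gained 8 and lost 22 regions in DM against WT. Delta-catenin (Ctnnd2), which binds the tails of classical cadherins, had 13 regions, with 6 and 1 called for WT, 2 and 3 for Npm1c, 2 and 2 for Flt3-ITD, and 11 and 13 for DM. Beta-catenin (Ctnnb1) had 15, with 13 and 12 called for WT, 12 and 11 for Npm1c, 6 and 9 for Flt3-ITD, and 5 and 7 for DM. The transcriptional repressors of E-cadherin (6 genes, 73 regions) had 56 and 48 regions called for WT, 46 and 53 for Npm1c, 17 and 25 for Flt3-ITD, and 19 and 20 for DM, and they gained 2 and lost 31 in DM against WT. Zeb2 held 44 of these regions, with 32 and 28 called for WT, 31 and 35 for Npm1c, 6 and 11 for Flt3-ITD, and 5 and 6 for DM. The other genes of the cadherin superfamily, such as the FAT and CELSR genes (15 of 18 with a region, 108 regions), gained 8 and lost 23 in DM against WT. Gains were thus 2.74% of the regions of the repressors, 7.55% of those of the partners and 7.41% of those of the other superfamily genes, against 6.93% of all regions. Losses were 42.5% of the regions of the repressors, 20.8% of those of the partners and 21.3% of those of the other superfamily genes, against 20.9% of all regions.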

How the data were processed

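ATAC-seq peak lists of 8 libraries were used. The deposited files hold positions only (chromosome, start and end of each peak, another kind of value than a height), and per the submitters' processing notes reads were aligned with Bowtie2 to mm10 and peaks called with MACS2; versions, thresholds, the transposase shift, duplicate removal and read depth are not given in the sources used here. Starts were made 1-based and peaks merged across libraries with pandas 2.3.3 and numpy 2.4.6 (Python 3.11.15). Genes, strands and starts came from RefSeq tables of GRCm38.p6, in which 22 of the 34 genes had a promoter. Where genes are nested, the cadherin or protocadherin took the region. Tests used scipy 1.17.1 and statsmodels 0.14.6, and the counting was tested on simulated data. Named with values are genes with 10 or more regions, those with most gained or lost regions per comparison (up to 6), those called in all 8 libraries or split by an allele, and the 5 widest, allele-split and DM-only regions. The members and lists were chosen with earlier results of these data known. Where replicates are not separate animals, p-values measure technical spread only. Replicate numbers did not pair the libraries (correlations of -0.0399 to 0.0387). Alternatives changed the merging overlap, distance limit, minimum width, list length, nesting rule and libraries used.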

Additional observations from a re-analysis of the deposited data

Results flagged for a closer look

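In 1 member region the Flt3-ITD allele went with opposite calls on the 2 backgrounds. The region lies 26518 bp from Pcdh1 (18:38159224-38159569, 346 bp). It was called in both WT and both DM libraries and in no library of Npm1c or Flt3-ITD, so it was lost with the allele on the wild-type background and gained with it beside Npm1c. Among all regions 222 (0.215%) had these calls. The difference was not tested.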

How the results depend on the processing

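Counts of gained and lost regions moved, as did counts of regions split by an allele or a genotype, whose values stand beside them in the report. Several of these settings start from fewer member regions than 202, so a lower count can reflect the smaller base. Counting only the 141 regions inside a gene gave, against WT, 7 gained and 11 lost in Npm1c, 15 lost in Flt3-ITD and 17 lost in DM. It gave 23 lost in DM against Npm1c and 3 lost in DM against Flt3-ITD. Only peaks of 300 bp or more (144 member regions) gave 6 gained and 8 lost in Npm1c against WT and 3 gained in Flt3-ITD against WT. In DM they gave 19 lost against Npm1c and 2 against Flt3-ITD. For regions inside a gene and for peaks of 300 bp or more, the share over all regions was not counted. Lists of equal length (132 member regions) gave, against WT, 7 lost in Npm1c, 13 gained and 8 lost in Flt3-ITD and 11 lost in DM. In DM they gave 16 lost against Npm1c and 17 gained against Flt3-ITD. Leaving out 1 library gave, against WT, 12 to 21 gained and 17 to 47 lost in Npm1c, 1 to 14 gained and 31 to 58 lost in Flt3-ITD, and 22 to 47 gained and 30 to 45 lost in DM. It gave 48 to 68 gained and 39 to 45 lost in DM against Npm1c, and 36 to 56 gained and 5 to 8 lost in DM against Flt3-ITD. Regions inside a gene alone gave 7 without the Flt3-ITD allele only, 3 missing in DM only and 7 in Npm1c only; peaks of 300 bp or more gave 2 missing in DM only and 1 with the Npm1c allele only, and lists of equal length 3 missing in DM only. The cause was not tested, beyond fewer regions or libraries entering. Leaving out 1 library moved none of the gains of Cdh13 against WT, of Cdh22 and Cdh23 against Npm1c and of Pcdh17 in Npm1c, nor the losses of Pcdh7, by more than 1.5 times. Regions numbered 203 when merging needed 100 bp, and 186 with nested genes apart.

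The lowest adjusted p of a member region for the Flt3-ITD allele ranged from 0.228 to 0.621 over the alternatives. The highest value came from the fit with the replicate number as a block (0.621, and 1 for the Npm1c allele), where the smallest possible p was 0.0556, so no region could pass 0.05 under the block whatever the data. Peak lists without heights or depth cannot separate a closed site from one under the calling threshold.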
